A study of Rattus norvegicus with 9 samples.

Results

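Fetal rat lungs that were hypoplastic, meaning too small for their stage, were compared with control fetal lungs of the same strain. The comparison takes in 3 untreated hypoplastic lungs and 3 control lungs, and every gene that passed a filter on low counts, which was 12966 of the 17465 genes in the deposited table. All lungs came from Sprague-Dawley rats, and the labels name no treatment for either of the 2 groups. Per the title of the series the hypoplasia followed oligohydramnios, in which too little amniotic fluid surrounds the fetus. The means of inducing it, the fetal age and the litters were not given in the sources used here. Another 3 hypoplastic lungs, to which vesicles shed by amniotic fluid stem cells had been given, entered the statistical fit to estimate the spread between lungs and are not described. RNA came from homogenized lung tissue, so every value mixes all cell types, and fewer cells of a type cannot be told apart from less RNA per cell. Nothing in the labels says that the lungs came from separate mothers, so p-values measure the spread between these samples only.

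As background, the fetal lung is filled with a liquid that its own epithelium secretes by pumping chloride into the airspaces, and that liquid keeps the tissue stretched. When amniotic fluid is lacking, lung liquid is lost more easily, the tissue is less distended and growth slows. The growing tips of the airways hold progenitor cells that branch under FGF, hedgehog, Wnt and BMP signals from and to the mesenchyme. Their descendants become type I cells, which form the thin gas exchange surface, and type II cells, which make surfactant.

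Levels are given as CPM, the usual depth-scaled counts, with library totals scaled by TMM normalization, and triplets of values follow the order of libraries 1, 2 and 3. A log2 fold change is hypoplastic minus control from edgeR's quasi-likelihood test, and a gene is named as called when its adjusted p is under 0.05. The 6 libraries held 56922779 to 72252538 estimated counts, with 13836 to 14089 genes above 0. Ribosomal and 7SL RNA made up 14.1% to 19.9% of the counts. Across genes, Pearson's r of log2 CPM was 0.964 to 0.985 between libraries of 1 group and 0.935 to 0.984 between the groups. The first principal component, with 43.5% of the variance, put control library 2 at -56.1 and hypoplastic library 2 at 61.5, while the other 4 libraries lay between -12.5 and 15.8. Results are therefore given for many genes and lists also without both of these libraries, an alternative added after the data were seen. Read from Xist and from Ddx3y and Eif2s3y of the Y chromosome, the control lungs were male, male and female, and the hypoplastic lungs female, female and male. With a sex term in the fit Spp1, described next, was again the gene called (edgeR adjusted p 0.0144). Control library 1 had 61.8 and 87.8 CPM of the 2 Y-linked genes, here scaled by the library total alone, and also 32.7 CPM of Xist, where the other 2 male libraries had 0.966 and 1.47 CPM.

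A single gene passed the test, and it was higher in the hypoplastic lungs. It was Spp1 (Gene ID 25353), which encodes osteopontin, a secreted phosphoprotein of matrix and activated macrophages that binds integrins and CD44. Its level was 3.57, 2.75 and 3.54 CPM in the control lungs and 63.5, 164 and 89.8 CPM in the hypoplastic lungs, so that the lowest hypoplastic value lay far above the highest control value. The log2 fold change was 5.01 (SE 0.419, edgeR adjusted p 0.00582), and it was 4.43 without both replicate 2 libraries. Leaving out control library 1, 2 or 3 gave log2 fold changes of 5.07, 4.89 and 5.06 with edgeR adjusted p-values of 0.0986, 0.0521 and 0.0878, so the call was lost in each case and the direction was kept. Of its receptors, Cd44 was at 223, 252 and 227 CPM in the control lungs and 253, 247 and 219 CPM in the hypoplastic lungs, and Itgb3, the beta 3 integrin, at 33.1, 17.4 and 34.3 CPM and 25.8, 45.8 and 34.9 CPM, and the groups overlapped for both. Alpl, an alkaline phosphatase that like osteopontin belongs to mineralised matrix but is also made by type II cells, was at 397, 449 and 393 CPM and 316, 218 and 268 CPM, without overlap (log2 fold change -0.63, SE 0.191, edgeR adjusted p 0.323). The called gene was 0.00771% of the genes tested. DESeq2 on the same rounded counts called 117 genes higher (0.902%) and 85 lower (0.656%), Spp1 among them, and 40 genes got no adjusted p from it.

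At an unadjusted p under 0.05 there were 865 higher genes (6.67% of those tested) and 738 lower genes (5.69%). All 3 hypoplastic lungs lay above all 3 control lungs for 996 genes (7.68%) and below them for 1174 (9.05%), which is meant below by no overlap. These shares are the background against which the counts of each gene list are given below. The median log2 fold change of all genes tested was 0.013, and 51.9% of the genes lay above 0. Among genes without overlap, 254 were over 2-fold higher and 92 over 2-fold lower. With 3 lungs against 3, an exact 2-sided permutation test of a single gene cannot go below a p of 0.1.

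The next 5 genes were named after their values were seen, and 4 of them are among those of smallest p. Olfm4, olfactomedin 4 of neutrophil granules and epithelium, was at 5.48, 3.89 and 4.11 CPM in the control lungs and 40.5, 23.9 and 29.9 CPM in the hypoplastic lungs. Its log2 fold change was 2.80 (SE 0.376, edgeR adjusted p 0.155, DESeq2 adjusted p 5.14e-12). Tf, which encodes the iron carrier transferrin, was at 26.9, 20.6 and 23.7 CPM and 99.5, 72.4 and 82.6 CPM (log2 fold change 1.84, SE 0.255, edgeR adjusted p 0.155). Both genes separated the groups with narrow spread within them, and neither value moved by more than 0.1 without the replicate 2 libraries. Lepr, the leptin receptor, was at 25.2, 37.8 and 27.3 CPM and 13.5, 9.85 and 13.7 CPM (log2 fold change -1.28, SE 0.199, edgeR adjusted p 0.185). Prg2, major basic protein of eosinophil granules, was at 0.138, 0.214 and 0.108 CPM and 2.62, 1.14 and 1.01 CPM. Itgb6, an epithelial integrin subunit that binds latent TGF-beta, was at 66.4, 110.5 and 64.8 CPM and 37.1, 44.7 and 40.9 CPM. Each of these 5 genes separated the groups and was called by DESeq2, with edgeR adjusted p-values from 0.155 to 0.317.

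Genes of neutrophils lay above the control level in all 3 hypoplastic lungs. Of 19 listed genes 17 were tested, 11 of them had an unadjusted p under 0.05 and 11 had no overlap, all higher, beside 6.67% and 7.68% of all genes. The median log2 fold change of the 17 genes was 2.37, and it was 1.76 without both replicate 2 libraries. DESeq2 called 8 of them higher. S100a8 and S100a9, the 2 chains of calprotectin, a calcium and zinc binding protein that fills the neutrophil cytosol, kept to 1 order across the hypoplastic libraries. S100a8 was at 4.49, 4.57 and 2.71 CPM in the control lungs and 39.04, 19.8 and 31.1 CPM in the hypoplastic lungs (log2 fold change 2.94, SE 0.471, edgeR adjusted p 0.185). S100a9 was at 3.95, 2.96 and 2.06 CPM and 36.1, 21.6 and 31.9 CPM (log2 fold change 3.32, SE 0.539, edgeR adjusted p 0.185). For both, hypoplastic library 2 was the lowest of the 3 hypoplastic lungs and still above every control lung.

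Of the granule genes some separated the groups and others did not. Np4, a neutrophil defensin, was at 0.536, 0.945 and 0.231 CPM and 10.6, 3.07 and 3.75 CPM (log2 fold change 3.40, SE 0.667). Camp, the precursor of cathelicidin, was at 1.41, 1.61 and 0.719 CPM and 11.5, 3.56 and 10.1 CPM (log2 fold change 2.77, SE 0.557). Defensin genes are a family of near-identical copies, and how reads shared by such copies were counted was not given in the sources used here. Mpo, myeloperoxidase of primary granules, was at 0.322, 0.143 and 0.122 CPM and 1.11, 5.21 and 0.633 CPM (log2 fold change 3.56, SE 1.06), highest in hypoplastic library 2. Mmp8, neutrophil collagenase, was at 1.36, 0.785 and 0.529 CPM and 3.8, 2.43 and 4.69 CPM (log2 fold change 2.03, SE 0.569). Ngp, a granule protein of the cathelicidin family, overlapped at 2.51, 3.64 and 0.99 CPM and 7.47, 2.01 and 8.13 CPM, and Fcnb, ficolin B, lay on the lower side at 20.7, 8.45 and 20.1 CPM and 10.4, 8.95 and 11.3 CPM with overlap (log2 fold change -0.69, SE 0.326). Lcn2, a secreted protein that binds bacterial iron carriers, was at 13.8, 10.5 and 11.6 CPM and 33.1, 131 and 21.3 CPM, and Mmp9, gelatinase B, at 1.24, 0.392 and 1.61 CPM and 3.75, 19.1 and 3.84 CPM. Epithelium and macrophages can make both, and both were highest in hypoplastic library 2. DESeq2 called S100a8, S100a9, Np4, Camp, Mpo, Mmp8, Lcn2 and Mmp9, whereas edgeR gave them adjusted p-values from 0.185 to 0.317 and called none. Csf3r and Padi4, also on the list, overlapped between the groups. Summed over the listed genes in the table, the neutrophil list held 60.9, 43.7 and 54.2 CPM in the control lungs. In the hypoplastic lungs it held 170.3, 236 and 142 CPM. Of the 236 CPM in hypoplastic library 2, Lcn2 alone made up 131 CPM.

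**Figure D1:**
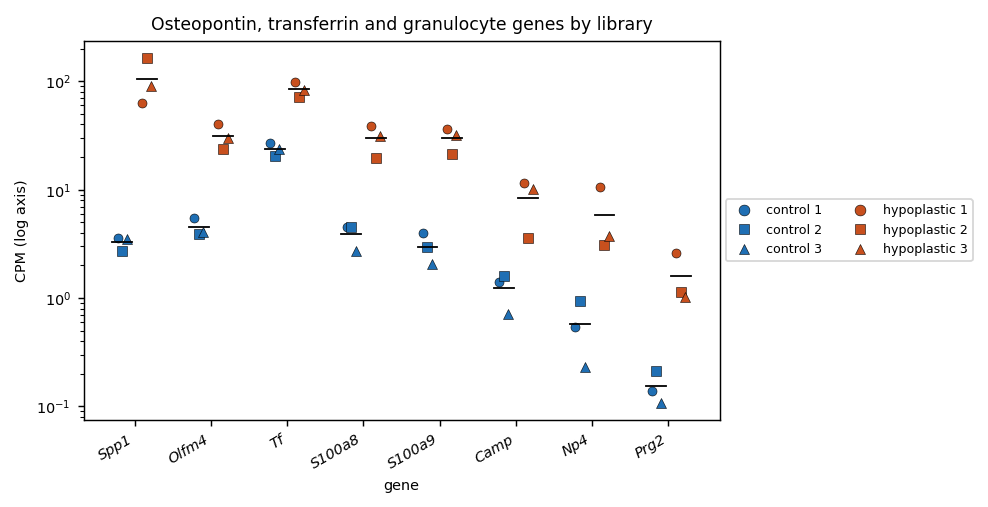
CPM (log axis) of Spp1, Olfm4, Tf, S100a8, S100a9, Camp, Np4 and Prg2 in each of the 3 control and 3 hypoplastic libraries, with a bar at the mean of each group. For each of the 8 genes every hypoplastic library lies above every control library, as for Spp1 with at least 63.5 CPM against at most 3.57 CPM.

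Most listed genes of type II cells lay lower in the hypoplastic lungs, and edgeR called none of the list. Of 15 listed genes 14 were tested, and 8 of them had an unadjusted p under 0.05 and were lower, beside 5.69% of all genes. For 7 genes the groups did not overlap, and DESeq2 called 4. Of the 14 genes 12 lay below 0. The 2 above it were Lyz2 and Chia, the latter high in hypoplastic library 1 alone. As a mean of log2(CPM + 0.5) minus the control mean, the list was at -0.43, 0.46 and -0.031 in the control libraries. The hypoplastic libraries were at -0.28, -0.64 and -0.61, so hypoplastic library 1 lay above control library 1. The median log2 fold change was -0.61. It was -0.33 without control library 2, where these genes were at their highest, and -0.40 without both replicate 2 libraries. Sftpc (Gene ID 50683), surfactant protein C and the defining gene of these cells, was at 645, 951 and 873 CPM in the control lungs and 496, 292 and 438 CPM in the hypoplastic lungs. Its log2 fold change was -1.01 (SE 0.22, edgeR adjusted p 0.317), and -0.70 without both replicate 2 libraries. Sftpb, surfactant protein B, was at 908, 2007 and 1362 CPM and 817, 763 and 816 CPM (log2 fold change -0.84, SE 0.244, and -0.48 without both replicate 2 libraries). The hypoplastic lungs were close together for Sftpb, and the spread lay among the control lungs.

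Other genes of surfactant handling were apart to differing degrees. Slc34a2, the phosphate carrier of type II cells, was at 664, 1155 and 705 CPM and 459.7, 457 and 473 CPM (log2 fold change -0.86, SE 0.233, DESeq2 adjusted p 0.029). Ctsh, a cathepsin that trims the surfactant proteins, was at 195, 536 and 313 CPM and 154, 162 and 175 CPM (log2 fold change -1.09, SE 0.293, DESeq2 adjusted p 0.0225). Lamp3, a membrane protein of lamellar bodies, was at 268, 494 and 322 CPM and 229.7, 194 and 206 CPM (log2 fold change -0.78, SE 0.232). In these 3, control library 2 was highest and control library 1 nearest to the hypoplastic lungs. Sftpd, surfactant protein D, was at 56.9, 182 and 97.9 CPM and 42.8, 58.6 and 51.6 CPM, and its groups overlapped in control library 1 and hypoplastic library 2. Napsa, a protease that processes surfactant proteins, overlapped at 83.5, 132 and 122 CPM and 86.1, 106 and 98.3 CPM (log2 fold change -0.22, SE 0.166). Sftpa1, surfactant protein A, overlapped at 337, 769 and 434 CPM and 431, 239 and 350.2 CPM, and its log2 fold change went from -0.59 (SE 0.323) to 0.019 without both replicate 2 libraries. Without both replicate 2 libraries the log2 fold changes of Slc34a2, Ctsh and Lamp3 were -0.55, -0.63 and -0.44.

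Type I cell genes had a median log2 fold change of -0.39 over 14 genes tested. Of these 4 had an unadjusted p under 0.05 and 2 did not overlap, all lower, beside 5.69% and 9.05% of all genes. Without control library 2 the median was -0.22. Ager, the receptor for glycation products on the type I cell surface, was at 42.2, 104 and 62.1 CPM in the control lungs and 23.1, 48.7 and 32.9 CPM in the hypoplastic lungs (log2 fold change -0.99, SE 0.388, edgeR adjusted p 0.369). Hopx, a homeodomain protein of type I cells and their precursors, was at 64.7, 164 and 100.2 CPM and 37.2, 80.6 and 59.3 CPM (log2 fold change -0.89, SE 0.374). In both genes hypoplastic library 2 lay above control library 1. Emp2, an epithelial membrane protein, was at 394, 851 and 462 CPM and 252, 316 and 266 CPM without overlap (log2 fold change -1.03, SE 0.28, DESeq2 adjusted p 0.0248). Cldn18, the lung tight junction claudin, was at 467, 588 and 490.4 CPM and 389.97, 369 and 379 CPM (log2 fold change -0.44, SE 0.117, DESeq2 adjusted p 0.0384).

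As a list, genes shared by all epithelial cells lay lower by less. Their median was -0.23 over 14 genes, of which 5 had an unadjusted p under 0.05 and 6 did not overlap, all lower. Without both replicate 2 libraries the median was -0.11, with 2 genes at an unadjusted p under 0.05. The 4 genes above 0 were Elf3, Krt18, Cldn4 and Foxa2, all with overlap. On the scale given for the type II list, the control libraries were at -0.004, -0.013 and 0.016. The hypoplastic libraries were at -0.015, -0.24 and -0.15, so hypoplastic library 1 was close to the control lungs. Epcam, an adhesion protein of every epithelial cell, was at 501, 504 and 528 CPM in the control lungs and 514, 399 and 457 CPM in the hypoplastic lungs (log2 fold change -0.16, SE 0.116), with overlapping values. Cdh1, E-cadherin, was at 687, 717 and 670.1 CPM and 596, 537 and 609.5 CPM (log2 fold change -0.25, SE 0.0998). Grhl2, a transcription factor of epithelial junctions, was at 59.2, 83.8 and 59.7 CPM and 50.7, 47.6 and 49.95 CPM. Nkx2-1, the transcription factor that marks lung epithelium, was at 356, 442 and 359 CPM and 265, 334 and 300.1 CPM (log2 fold change -0.36, SE 0.136). Cdh1, Grhl2 and Nkx2-1 were lower without overlap of the libraries, and their log2 fold changes were smaller than those of Sftpc, Emp2 and Ager, a difference that was not tested.

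Genes of the progenitor cells at the airway tips had a median of -0.13 over 13 genes, with 1 higher and 2 lower at an unadjusted p under 0.05. Sox9, the tip transcription factor, was at 187, 107 and 157 CPM and 169, 126 and 106 CPM, and Id2, another tip regulator, at 37.4, 24.3 and 29.2 CPM and 38.4, 29.3 and 31.98 CPM, both with overlap. Shh, the ligand that the epithelium sends to the mesenchyme, was at 15.99, 20.1 and 15.4 CPM and 11.7, 12.7 and 13.6 CPM without overlap (log2 fold change -0.44, SE 0.195). Clu, clusterin, was at 11.2, 5.4 and 10.03 CPM and 20.5, 58.8 and 9.23 CPM, high in hypoplastic libraries 1 and 2 and within the control range in library 3. Sox9 is also a cartilage gene, so its level in whole lung is not that of the tips alone.

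Airway genes showed no common direction. The club cell gene Scgb1a1, a secretoglobin of the airway lining, was at 184, 336 and 252 CPM and 196, 281 and 175 CPM (log2 fold change -0.24, SE 0.247), and Scgb3a2 at 27.5, 53.1 and 28.7 CPM and 43.7, 33.5 and 13.4 CPM. Scgb3a1, a secretoglobin of larger airways, was at 30.8, 0.147 and 0.0905 CPM in the hypoplastic lungs against at most 0.606 CPM in the control lungs, so its high level was that of hypoplastic library 1. The median over 8 club and secretory genes was -0.13, and 0.20 without both replicate 2 libraries. Genes of ciliated cells had a median of -0.27 (-0.010 without both replicate 2 libraries) over 10 genes with none at an unadjusted p under 0.05 in edgeR. Without control library 2 that median was 0.14. Foxj1, the master regulator of motile cilia, was at 15.9, 49.4 and 14.98 CPM and 10.5, 21.05 and 20.8 CPM, and Rfx3, another cilia regulator, at 34.5, 32.6 and 31.2 CPM and 32.01, 27.97 and 30.99 CPM.

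Transporters of the lung liquid lay lower where the groups were apart. Of 17 listed genes 16 were tested, 6 had an unadjusted p under 0.05 and 6 had no overlap, all lower, beside 5.69% and 9.05% of all genes. The median log2 fold change was -0.19, and 5 of the 16 genes lay above 0. It was -0.41 without hypoplastic library 2, -0.26 without both replicate 2 libraries and -0.11 with the sex term. The subunits of the epithelial sodium channel, which absorbs lung liquid around birth, differed from each other. Scnn1a, its alpha subunit, was at 30.2, 148 and 58.5 CPM in the control lungs and 12.2, 28.3 and 18.9 CPM in the hypoplastic lungs (log2 fold change -1.997, SE 0.517, edgeR adjusted p 0.317). Scnn1b, the beta subunit, was at 7.002, 9.51 and 6.79 CPM and 6.89, 10.4 and 9.39 CPM (log2 fold change 0.20, SE 0.209). The control lungs spread widely for Scnn1a, from 30.2 CPM to 148 CPM, and the hypoplastic lungs all lay under the lowest of them.

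Of the genes for chloride transport, which drives secretion, 3 are given here. Ano1, a calcium-activated chloride channel, was at 173, 308 and 193 CPM and 113, 149.8 and 109 CPM (log2 fold change -0.86, SE 0.227, DESeq2 adjusted p 0.0318). Slc26a9, a chloride transporter of the airway surface, was at 34.5, 51.99 and 32.9 CPM and 24.7, 20.9 and 23.999 CPM (log2 fold change -0.78, SE 0.188, DESeq2 adjusted p 0.0207). Cftr, the cAMP-regulated chloride channel, was at 49.6, 73.4 and 48.4 CPM and 48.02, 37.4 and 40.6 CPM (log2 fold change -0.44, SE 0.17). Hypoplastic library 1 came within 1 CPM of the lowest control lung for Cftr, and the log2 fold change without both replicate 2 libraries was -0.15. Kcnq1, a potassium channel that recycles potassium for secretion, was at 29.02, 38.5 and 27.8 CPM and 23.1, 20.98 and 22.6 CPM. Its partner subunit Kcne2, which was among the lower genes of largest change, was at 9.65, 18.01 and 11.4 CPM and 5.67, 2.01 and 5.27 CPM (log2 fold change -1.59, SE 0.375, DESeq2 adjusted p 0.00597). Atp1b1, a subunit of the sodium pump, was at 379.7, 584 and 444 CPM and 342, 365 and 347 CPM.

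**Figure D2:**
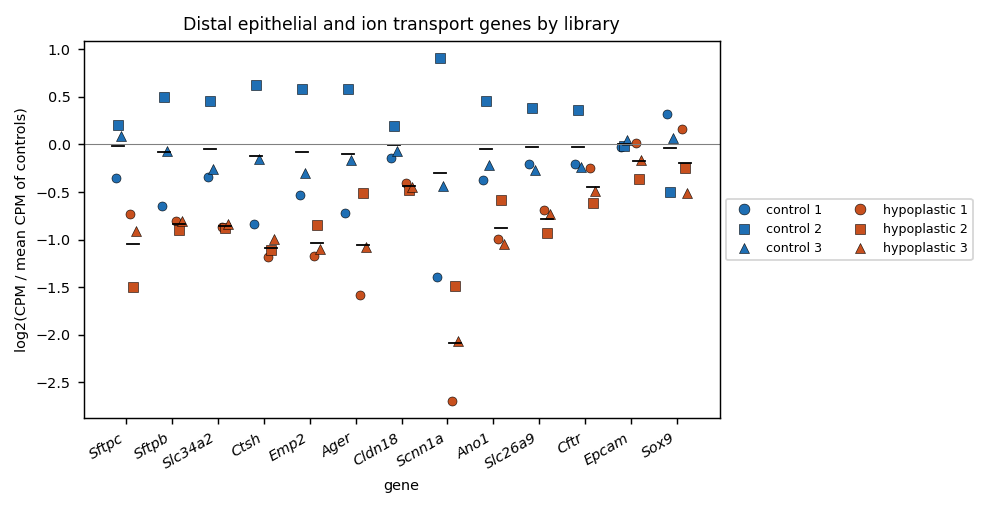
Log2 ratio of CPM to the mean CPM of the 3 control libraries for 13 genes of the distal epithelium and of ion transport, by library, with a bar at the mean of the log2 values of each group. The hypoplastic points lie below the control points for Sftpc, Sftpb, Slc34a2, Ctsh, Emp2, Cldn18, Scnn1a, Ano1, Slc26a9 and Cftr, and overlap them for Ager, Epcam and Sox9.

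The other lower genes of largest change were of several kinds. By the rule for named genes these were Mlc1, Scnn1a, Crnkl1, Mst1, Kcne2, Slc16a4, Esr2, Pllp, Wnt3a and Angptl8, taken from 568 lower genes that met its criteria. Esr2, estrogen receptor beta, was at 15.2, 13.5 and 16.2 CPM in the control lungs and 8.28, 5.16 and 2.64 CPM in the hypoplastic lungs (log2 fold change -1.48, SE 0.338, edgeR adjusted p 0.317, DESeq2 adjusted p 0.00552). Its change was -1.52 without both replicate 2 libraries, so it did not rest on them. Angptl8, a secreted regulator of lipoprotein lipase, was at 4.06, 6.49 and 3.43 CPM and 2.29, 1.58 and 1.21 CPM (log2 fold change -1.44, SE 0.313, DESeq2 adjusted p 0.00597). Wnt3a, a Wnt ligand, was at 2.7, 7.85 and 3.42 CPM and 1.48, 2.33 and 1.27 CPM, and Pllp, a membrane proteolipid, at 5.7, 20.4 and 8.3 CPM and 3.58, 5.5 and 3.35 CPM. Mst1, the ligand of the receptor Ron on ciliated and other epithelial cells, was at 1.26, 3.8 and 2.03 CPM and 0.64, 0.882 and 0.796 CPM, and Slc16a4, a carrier of the monocarboxylate family, at 2.47, 5.67 and 2.24 CPM and 1.22, 0.882 and 1.57 CPM. Mlc1, a membrane protein best known from glia, was at 0.613, 4.35 and 2.31 CPM and 0.503, 0.604 and 0.579 CPM. Each of Wnt3a, Pllp, Mst1, Slc16a4 and Mlc1 was highest in control library 2, the library with the highest type II genes. Crnkl1, a splicing factor, was at 10.6, 16.5 and 17.4 CPM and 7.47, 2.07 and 1.92 CPM (log2 fold change -1.95, SE 0.659), with its low values in hypoplastic libraries 2 and 3.

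As a list, fibroblast genes were high in hypoplastic library 2 and low in control library 2, which did not hold for every member. The level of a list in a library is the mean of log2(CPM + 0.5) over its tested genes minus the mean of the control libraries. For 13 mesenchymal genes it was 0.072, -0.55 and 0.48 in the control libraries and 0.53, 1.63 and 0.15 in the hypoplastic libraries. Their median log2 fold change was 0.59, with 3 genes at an unadjusted p under 0.05. It was -0.12 without both replicate 2 libraries, so its direction rests on them. Of the 13 genes 10 had a log2 fold change above 0, and 3 had one below it, which were Tcf21, Meox2 and Mfap4. Meox2 was at 13.1, 15.1 and 16.2 CPM in the control lungs and 15.9, 10.5 and 12.04 CPM in the hypoplastic lungs, lowest in hypoplastic library 2. Col1a1, a chain of type I collagen, was at 1182, 599 and 1862 CPM in the control lungs and 1416, 5816 and 1396 CPM in the hypoplastic lungs, and Col1a2, its partner chain, at 996, 506 and 1336 CPM and 1095, 3229.6 and 1204 CPM. Hypoplastic libraries 1 and 3 lay within the control range for both. Dcn, decorin of collagen fibrils, was at 1.84, 2.25 and 3.36 CPM and 13.3, 147 and 1.97 CPM, and Lum, lumican, at 0.352, 0.303 and 0.624 CPM and 6.28, 75.05 and 0.109 CPM. Both were high in hypoplastic libraries 1 and 2, and hypoplastic library 3 lay under the highest control lung. Vim, the filament protein vimentin, was at 690.4, 420.1 and 749.8 CPM and 795, 1246 and 768 CPM (log2 fold change 0.59, SE 0.263), with every hypoplastic lung above every control lung, and a log2 fold change of 0.12 without both replicate 2 libraries.

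Among the collagens 2 chains of type IV collagen lay lower. Col4a3, a type IV collagen chain of the alveolar basement membrane, was at 11.8, 31.2 and 17.8 CPM in the control lungs and 5.44, 11.3 and 5.86 CPM in the hypoplastic lungs (log2 fold change -1.43, SE 0.377, edgeR adjusted p 0.317, DESeq2 adjusted p 0.0185). Col4a4, which assembles with it, was at 10.2, 22.6 and 13.5 CPM and 6.36, 8.08 and 5.39 CPM (log2 fold change -1.22, SE 0.282, DESeq2 adjusted p 0.00704). Neither gene overlapped, and without both replicate 2 libraries the values were -1.39 and -1.01. Col4a1, the widespread type IV chain, overlapped at 1701, 1219 and 2108 CPM and 1670.1, 2094 and 1677 CPM (log2 fold change 0.11, SE 0.212). Col4a3 and Col4a4 were the 2 genes of the collagen list at an unadjusted p under 0.05, out of 12 tested.

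Elastic fibre genes, smooth muscle genes and lipofibroblast genes had few members past an unadjusted p of 0.05. Eln, elastin, was at 617, 246 and 1411 CPM and 761, 1024 and 937 CPM, and Fbn1, fibrillin 1, at 271, 194 and 330.1 CPM and 259, 390.3 and 297 CPM, both with overlap. Fbln5, which tethers elastin to cells, was lower without overlap, at 69.4, 107 and 81.01 CPM and 68.99, 50.3 and 53.6 CPM (log2 fold change -0.57, SE 0.193). Mfap5, a microfibril protein, was at 1.27, 0.428 and 1.63 CPM and 2.58, 18.3 and 0.815 CPM, high in hypoplastic library 2. The median of 14 elastic fibre genes was 0.24, and -0.11 without both replicate 2 libraries. Smooth muscle genes had a median of 0.55 (0.36 without both replicate 2 libraries) over 13 genes, 12 of them above 0, and 1 at an unadjusted p under 0.05. Without control library 2, where they were lowest, that median was 0.22.

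Acta2, smooth muscle actin, was at 146, 68.5 and 191 CPM and 306, 181 and 163 CPM, and Myh11, smooth muscle myosin, at 78.2, 44.3 and 67.6 CPM and 133, 52.5 and 54.6 CPM, both highest in hypoplastic library 1. Des, the muscle filament desmin, was at 115, 33.9 and 136 CPM and 223, 209 and 144 CPM (log2 fold change 1.02, SE 0.499), and Myl9, a myosin light chain, at 15.1, 10.4 and 15.7 CPM and 28.3, 18.6 and 16.9 CPM (log2 fold change 0.63, SE 0.273). These 2 did not overlap. Of 12 lipofibroblast genes tested, with a median of -0.071, 2 were lower at an unadjusted p under 0.05. Fgf10, the mesenchymal ligand that makes the airway tips branch, was at 5.41, 4.78 and 5.71 CPM and 5.47, 4.62 and 6.23 CPM (log2 fold change 0.035, SE 0.176), and Plin2, a coat protein of lipid droplets, at 57.8, 40.4 and 61.9 CPM and 54.6, 115 and 70.9 CPM. Limch1, an activator of non-muscle myosin, was at 74.4, 85.3 and 84.02 CPM and 66.98, 60.8 and 64.1 CPM, and Macf1, a linker of the cytoskeleton, at 1023, 1355 and 1083 CPM and 863, 854 and 945 CPM.

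Genes of all endothelium lay near the control level with all 6 libraries. The median of 14 genes was -0.070, with 10 below 0 and 1 at an unadjusted p under 0.05. Without both replicate 2 libraries the median was -0.19, with 0 of the 14 genes above 0. The genes shared by all epithelial cells had a median of -0.11 in that fit. Pecam1, an adhesion protein of all endothelium, was at 298, 227 and 327 CPM in the control lungs and 291, 339.6 and 245 CPM in the hypoplastic lungs, and Cdh5, VE-cadherin, at 214, 181 and 190.4 CPM and 215, 189.8 and 159 CPM. Robo4, a guidance receptor of endothelium, was at 18.2, 19.4 and 18.7 CPM and 16.03, 16.5 and 13.95 CPM without overlap (log2 fold change -0.28, SE 0.118), and Egfl7, a secreted endothelial protein, at 75.1, 76.4 and 63.2 CPM and 61.7, 48.6 and 61.3 CPM. Of 8 lymphatic genes 3 were higher at an unadjusted p under 0.05, with a list median of -0.042 and a level of 0.091, -0.029 and -0.061 in the control libraries and 0.16, 1.01 and -0.21 in the hypoplastic libraries. Prox1, the regulator of lymphatic identity, was at 3.25, 2.12 and 3.21 CPM and 4.47, 9.13 and 4.25 CPM without overlap (log2 fold change 1.05, SE 0.327). Reln, a secreted glycoprotein of lymphatics, was at 3.03, 1.28 and 3.08 CPM and 6.13, 19.7 and 1.19 CPM, and the chemokine Ccl21 at 1.07, 1.02 and 0.597 CPM and 1.6, 16.4 and 0.887 CPM.

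**Figure D3:**
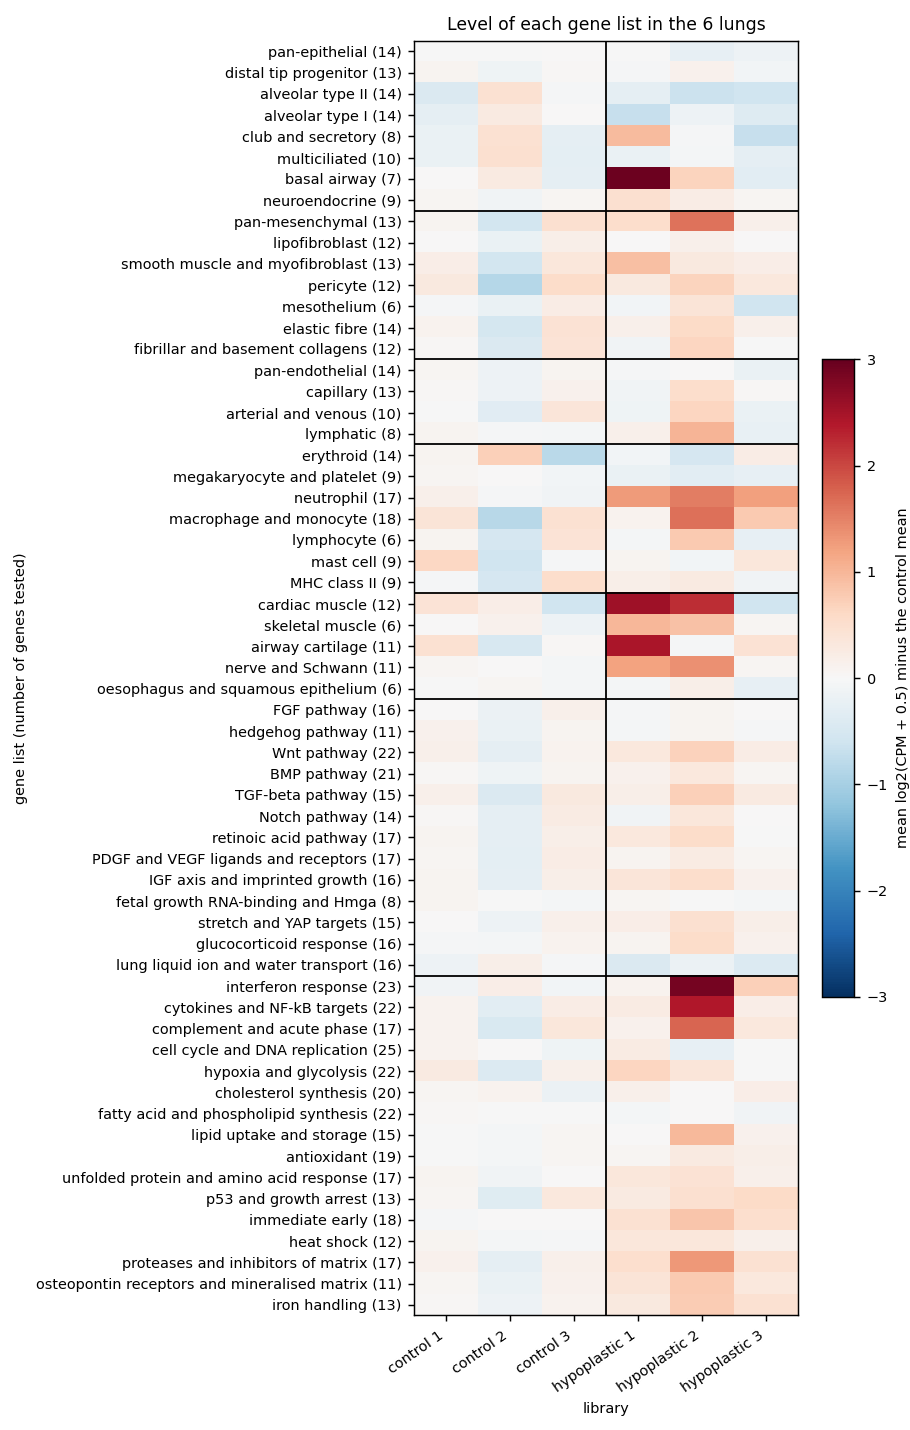
Level of 60 gene lists with at least 6 tested genes (rows, number of tested genes in brackets) in the 3 control and 3 hypoplastic libraries (columns), as mean log2(CPM + 0.5) minus the mean of the control libraries. The neutrophil row is at 1.24 to 1.53 in all hypoplastic libraries, whereas the interferon row reaches 2.88 in hypoplastic library 2 and the basal airway row 2.94 in hypoplastic library 1.

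Interferon response genes were, as a list, highest in hypoplastic library 2 and also above the control range in hypoplastic library 3. Their level was -0.11, 0.20 and -0.093 in the control libraries and 0.11, 2.88 and 0.72 in the hypoplastic libraries. The median log2 fold change of 23 genes tested was 2.04, with 12 at an unadjusted p under 0.05, all higher, and 5 without overlap. It was 0.22 without both replicate 2 libraries, with 1 gene at an unadjusted p under 0.05. These genes are switched on by interferon through a factor complex that binds the interferon-stimulated response element, whose core is GAAANNGAAA. In RefSeq promoters of the GRCr8 assembly, from 250 bases before to 50 bases after the start site, 10 of the 14 listed genes with an entry held this core on either strand. Over all genes with an entry it was held by 1131 of 27457, or 4.12%. A match is a description of the sequence and not a site of binding. Stretches of 60 bases from 4 of these promoters are shown because their genes are all highest in hypoplastic library 2, written along the strand of the gene with each match to the core in capitals.
Ifit3 (chr1:241527257-241527316, plus strand): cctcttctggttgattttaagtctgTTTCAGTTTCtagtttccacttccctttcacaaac
Oas1a (chr12:41330403-41330462, plus strand): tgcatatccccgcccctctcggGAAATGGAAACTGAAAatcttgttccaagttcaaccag
Irf7 (chr1:205800058-205800117, minus strand): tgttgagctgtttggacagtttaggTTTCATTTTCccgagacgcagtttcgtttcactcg
Oasl2 (chr12:47383302-47383361, minus strand): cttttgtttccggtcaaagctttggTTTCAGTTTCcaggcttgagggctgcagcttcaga
The promoters of Mx1, Oasl, Irf9 and Stat2 did not hold the core in this window, and listed genes without an entry included Ifit1, Ifit2, Isg15, Mx2, Oas2, Usp18, Rtp4 and Rig1. In Oas1a the 2 matches overlap, and in Ifit3, Irf7 and Oasl2 the match reads along the opposite strand.

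The highest values of the genes below were those of hypoplastic library 2, and Ifit1 was high in other libraries too. Ifit3, an RNA-binding antiviral protein, was at 0.506, 0.713 and 0.393 CPM in the control lungs and 0.458, 85.5 and 2.77 CPM in the hypoplastic lungs (log2 fold change 5.80, SE 1.82). Isg15, the ubiquitin-like interferon protein, was at 0.429, 0.0892 and 0.244 CPM and 0.717, 19.6 and 1.34 CPM, and Oasl, of the oligoadenylate synthetase family, at 0.506, 0.731 and 0.692 CPM and 0.961, 49.6 and 2.41 CPM. Oas2, a synthetase of the same family, was at 0.0766, 0.125 and 0.0814 CPM and 0.183, 4.05 and 1.34 CPM, and Ifit2 at 3.91, 3.67 and 3.35 CPM and 3.17, 51.8 and 4.54 CPM. Irf7, the factor that amplifies interferon production, was at 3.48, 6.08 and 4.45 CPM and 3.2, 108 and 6.08 CPM, Oas1a at 0.337, 0.285 and 0.19 CPM and 0.259, 12.9 and 1.14 CPM, and Oasl2 at 0.95, 0.945 and 1.25 CPM and 1.92, 7.61 and 1.41 CPM. In all 8 genes hypoplastic library 2 was at least 3 times the next library. Hypoplastic library 1 was under 2 times the highest control lung. Hypoplastic library 3 lay above every control lung for these genes apart from Irf7, where it and control library 2 were at 6.08 CPM. Slfn4 and Ifi27l2b, both also known as interferon responsive, were at 2.96, 68.2 and 7.96 CPM and 1.72, 44.8 and 4.4 CPM in the hypoplastic lungs against at most 2.66 and 1.61 CPM in the control lungs. Ifit1 differed, at 0.567, 24.5 and 0.0542 CPM and 25.3, 43.99 and 32.6 CPM. It was high in all 3 hypoplastic lungs and in control library 2, and its log2 fold change went from 2.04 (SE 1.21) to 6.82 without control library 2, where edgeR called it with an adjusted p of 0.0148.

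Cytokines and targets of NF-kB, the main inflammatory transcription factor, were also led by hypoplastic library 2. The list level was 0.10, -0.33 and 0.23 in the control libraries and 0.25, 2.41 and 0.21 in the hypoplastic libraries. The median over 22 genes was 1.75, with 14 higher at an unadjusted p under 0.05, and 0.14 without both replicate 2 libraries. Il6, the acute phase cytokine, was at 0.0613, 0.0713 and 0.0814 CPM in the control lungs and 0.122, 7.05 and 0.109 CPM in the hypoplastic lungs. Cxcl10, a chemokine for T cells, was at 1.55, 0.606 and 2.12 CPM and 3.11, 98.9 and 2.5 CPM, and Ccl12, a monocyte chemokine, at 0.23, 0.0535 and 0.203 CPM and 0.427, 9.59 and 0.652 CPM. Il1b and Il1a, the interleukin 1 ligands, were at 1.17, 7.33 and 1.28 CPM and 0.213, 2.66 and 0.199 CPM in the hypoplastic lungs, and at 0.781, 0.285 and 1.4 CPM and 0.199, 0.125 and 0.203 CPM in the control lungs. For all 5 the high value was that of hypoplastic library 2.

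Socs3 and Tnf were separated in every library. Socs3, the feedback inhibitor of cytokine receptors that signal through STAT3, was at 9.09, 5.73 and 13.05 CPM and 17.2, 25 and 19.8 CPM (log2 fold change 1.15, SE 0.266, edgeR adjusted p 0.317, DESeq2 adjusted p 0.00713). Tnf, tumour necrosis factor, was at 0.981, 0.696 and 1.19 CPM and 1.65, 2.99 and 2.1 CPM (log2 fold change 1.21, SE 0.345). Without both replicate 2 libraries the values were 0.74 and 0.78. Il1rl1, the interleukin 33 receptor, was at 1.2, 0.41 and 1.18 CPM and 5.38, 15.1 and 6.39 CPM (log2 fold change 3.24, SE 0.537, edgeR adjusted p 0.194), a gene named after its values were seen.

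Complement and acute phase genes had a median of 1.18 over 17 genes, with 4 higher at an unadjusted p under 0.05. Without both replicate 2 libraries it was -0.068. C3, the central complement component, was at 36.9, 72.1 and 57.97 CPM and 48.04, 302 and 33.8 CPM, and C4a at 91.7, 30.5 and 125 CPM and 34.8, 194 and 70.4 CPM. C1s, a protease of the first complement complex, was at 9.59, 1.998 and 16.2 CPM and 11.9, 114 and 14.1 CPM. Osmr, the oncostatin M receptor, was at 6.83, 4.08 and 8.87 CPM and 10.4, 33.6 and 10.5 CPM, without overlap. Macrophage genes had a median of 0.96 over 18 genes, and -0.020 without both replicate 2 libraries, with levels of 0.39, -0.84 and 0.45 in the control libraries and 0.10, 1.65 and 0.80 in the hypoplastic libraries.

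Csf1r, the receptor that macrophages need, was at 33.3, 8.37 and 36.95 CPM in the control lungs and 22.8, 76.1 and 39.6 CPM in the hypoplastic lungs, and Cd68, a macrophage lysosome protein, at 5.47, 1.32 and 5.28 CPM and 3.32, 17.7 and 6.32 CPM. Both were lowest in control library 2 and highest in hypoplastic library 2. Adgre1, which encodes the macrophage antigen F4/80 and is also made by eosinophils, was the macrophage gene without overlap, at 5.76, 1.18 and 5.91 CPM and 12.001, 23.9 and 16.7 CPM (log2 fold change 2.02, SE 0.541, DESeq2 adjusted p 0.0113). Its log2 fold change was 1.30 without both replicate 2 libraries. Msr1, a scavenger receptor, was at 7.32, 2.12 and 8.87 CPM and 7.56, 31.97 and 11.7 CPM, and Fcgr1a, an immunoglobulin receptor, at 1.81, 0.785 and 1.17 CPM and 1.78, 5.91 and 3.26 CPM. Osteopontin is also a macrophage product, and Spp1 was at 63.5 CPM in hypoplastic library 1, where Cd68 and Csf1r lay within the control range. The part of any cell type in the Spp1 level was not tested.

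Genes of cardiac muscle and of nerve were high in some hypoplastic libraries, and whether their RNA came from within the lung was not tested. Skeletal muscle genes had a median of 0.92 over 6 genes, all above 0, with 4 at an unadjusted p under 0.05. Their level was 0.016, 0.13 and -0.145 in the control libraries and 0.99, 0.87 and 0.059 in the hypoplastic libraries. Other lists of neighbouring tissues, apart from cartilage given below, differed. The median was 0.50 over 2 liver genes, 0.12 over 6 genes of oesophagus and -0.015 over 4 of thymus. Cardiac muscle genes had a median of 3.06 over 12 genes tested of 17 in the table, with 9 at an unadjusted p under 0.05 and none without overlap. Their level was 0.41, 0.20 and -0.60 in the control libraries and 2.55, 2.23 and -0.60 in the hypoplastic libraries. Myh6, the atrial myosin, was at 3.13, 0.963 and 0.0136 CPM in the control lungs and 70.9, 28.2 and 0.0181 CPM in the hypoplastic lungs, and Mybpc3, a cardiac sarcomere protein, at 0.46, 0.25 and 0 CPM and 12.2, 4.8 and 0.0905 CPM. Tnni3, cardiac troponin I, was at 2.42, 1.71 and 1.42 CPM and 12.03, 5.94 and 1.86 CPM, and Tnnt2, cardiac troponin T, at 1.27, 1.37 and 1.03 CPM and 9.7, 4.64 and 0.977 CPM. Hypoplastic libraries 1 and 2 were high for all 4, and hypoplastic library 3 lay within the control range or, for Tnnt2, under it. Myl2, the ventricular light chain, did not pass the filter.

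Nerve genes were high in the same 2 libraries. Their median was 2.11 (1.40 without hypoplastic library 2) over 11 genes, with 8 at an unadjusted p under 0.05, and their level was 0.067, 0.00200 and -0.069 in the control libraries and 1.21, 1.38 and 0.052 in the hypoplastic libraries. Tubb3, the neuronal tubulin, was at 0.383, 0.517 and 0.475 CPM and 4.51, 3.61 and 0.272 CPM, and Sox10, the regulator of Schwann cells, at 0.506, 0.268 and 0.0407 CPM and 2.26, 2.2 and 0.127 CPM. Prph, a filament of peripheral neurons, was at 1.49, 0.892 and 1.37 CPM and 5.61, 4.93 and 2.19 CPM, without overlap (log2 fold change 1.76, SE 0.357, DESeq2 adjusted p 0.0022).

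Without hypoplastic library 3 edgeR called 45 genes, all higher. They included the cardiac genes Myl4, Mybpc3, Tnni3, Pln, Csrp3, Myh7, Actn2, Casq2, Trdn and Tbx20, the nerve genes Tubb3, Prph, Gap43, Syt4, Chgb, Ina and Ntrk3, and the mesenchymal genes Lum, Fap, Prrx1, Twist1, Foxc1 and Foxc2. Agtr2, the angiotensin type 2 receptor, was among them with an adjusted p of 0.00602. These were named after their values were seen. Spp1, Tf, Olfm4 and Prg2 were also among the 45.

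As lists, cartilage and basal cell genes were highest in hypoplastic library 1. Cartilage genes had a median of 1.22 over 11 genes, with 7 at an unadjusted p under 0.05, and a level of 0.45, -0.48 and 0.031 in the control libraries and 2.45, -0.044 and 0.43 in the hypoplastic libraries. Without hypoplastic library 1 the median was 0.28. Col2a1, the main cartilage collagen, was at 409.9, 118 and 339 CPM and 894, 375 and 509.8 CPM, Col9a1 at 9.67, 3.6 and 5.65 CPM and 80.2, 3.56 and 12.1 CPM, and Comp, a cartilage matrix protein, at 0.245, 0.178 and 0.353 CPM and 9.45, 0.359 and 0.253 CPM. Col11a1, a minor cartilage collagen, was at 6.63, 3.92 and 5.87 CPM and 89.1, 12.2 and 13.97 CPM, without overlap. Basal airway genes, which mark the stem cells of the large airways, had 6 of 7 tested genes higher at an unadjusted p under 0.05. Their median was 2.11, and 0.46 without hypoplastic library 1. Of the 7 genes, Ngfr was highest in hypoplastic library 2. Aqp3 lay on the lower side and was highest in control library 2. Krt14 was at 0.0766, 0.107 and 0.0271 CPM and 14.9, 0.931 and 0.145 CPM, Krt5 at 0.46, 0.482 and 0.0542 CPM and 14.9, 0.196 and 0 CPM, and Krt17 at 1.53, 2.12 and 0.529 CPM and 47.4, 3.95 and 1.74 CPM. Tp63, the basal cell transcription factor, was at 1.18, 0.963 and 0.936 CPM and 8.3, 1.08 and 1.14 CPM. Krt5 was listed at 0 in hypoplastic library 3. How much large airway, heart or nerve was taken with each lung was not given in the sources used here, and the part of these tissues in other results was not tested.

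**Figure D4:**
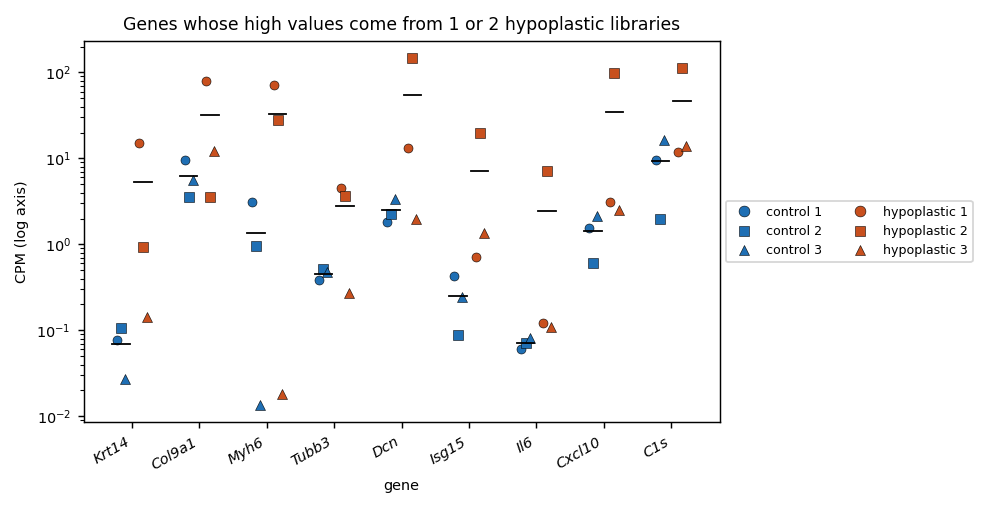
CPM (log axis) of 9 genes by library, with a bar at the mean of each group. Krt14 and Col9a1 are highest in hypoplastic library 1, Myh6 and Tubb3 in hypoplastic libraries 1 and 2, and Dcn, Isg15, Il6, Cxcl10 and C1s in hypoplastic library 2.

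Genes of red cells, platelets and lymphocytes had few members past an unadjusted p of 0.05. Erythroid genes had a median of -0.19 over 14 genes and 0.48 without both replicate 2 libraries. Alas2, the first enzyme of haem synthesis in red cells, was at 926, 1496 and 643 CPM and 523, 426 and 809 CPM, highest in control library 2, and Slc4a1, the red cell anion exchanger, at 712, 1362 and 340.1 CPM and 697, 410.5 and 954 CPM. Platelet genes had a median of -0.22 over 9 genes, with Gp1bb at 2.19, 1.44 and 1.48 CPM and 0.595, 0.522 and 1.01 CPM and Gp5 at 0.95, 1.02 and 0.556 CPM and 0.351, 0.147 and 0.362 CPM, both subunits of the platelet receptor for von Willebrand factor and both without overlap. Of 16 listed lymphocyte genes 6 passed the filter, and the T cell genes Cd3e, Cd3d and Cd3g did not.

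The immediate early genes, which cells switch on within minutes of a stimulus, lay above the control level in all 3 hypoplastic lungs. All 18 listed genes were tested, 10 had an unadjusted p under 0.05 and 9 had no overlap, all higher, beside 6.67% and 7.68% of all genes. Their median was 0.68, and 0.45 without both replicate 2 libraries, and their level was -0.027, 0.022 and 0.00500 in the control libraries and 0.46, 0.82 and 0.51 in the hypoplastic libraries. Egr1, a zinc finger transcription factor, was at 17.6, 21.3 and 17.2 CPM in the control lungs and 58.4, 54.6 and 32.1 CPM in the hypoplastic lungs (log2 fold change 1.37, SE 0.336, edgeR adjusted p 0.317, DESeq2 adjusted p 0.00648). Fos, a subunit of the factor AP-1, was at 49.8, 59.3 and 46.1 CPM and 102, 89.7 and 109.9 CPM (log2 fold change 0.96, SE 0.241, DESeq2 adjusted p 0.0194). Fosb, of the same family, was at 9.68, 21.6 and 8.29 CPM and 37.99, 34.5 and 30.2 CPM, and Junb, a partner of Fos, at 136, 102 and 152 CPM and 223, 296 and 186 CPM. Zfp36, which destabilises cytokine messages, was at 121, 118 and 127 CPM and 185, 248 and 159 CPM (log2 fold change 0.69, SE 0.202).

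Many immediate early genes are driven by serum response factor, which binds the CArG box. In the same GRCr8 windows 3 of 11 listed genes with an entry held a CArG box, on a consensus that reads the same on both strands, beside 485 of 27457 genes or 1.77%. Their stretches are shown because Egr1 and Zfp36 are among the genes without overlap, with the boxes in capitals.
Egr1 (chr18:26736959-26737018, plus strand): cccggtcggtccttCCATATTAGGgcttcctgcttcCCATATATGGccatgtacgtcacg
Egr2 (chr20:21054490-21054549, minus strand): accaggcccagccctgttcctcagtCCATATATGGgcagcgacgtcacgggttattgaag
Zfp36 (chr1:92799109-92799168, minus strand): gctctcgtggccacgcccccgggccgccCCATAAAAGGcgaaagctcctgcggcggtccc
Egr2, at 0.414, 0.589 and 0.461 CPM and 1.4, 2.51 and 0.543 CPM, overlapped in hypoplastic library 3. Egr1 has 2 boxes within this stretch and Egr2 and Zfp36 have 1 each. The promoters of Fosb, Junb, Jund, Ier2, Nr4a1, Nr4a2, Klf4 and Dusp1 held none in this window, and Fos, Jun, Egr3, Ier3, Nr4a3, Atf3 and Klf2 had no entry.

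Genes of the p53 response and of growth arrest lay higher in part. Of 13 tested 6 had an unadjusted p under 0.05 and 6 had no overlap, all higher, with a median of 0.47. Without control library 2 the median was 0.28, and without both replicate 2 libraries 0.26. Cdkn1a, the inhibitor of cyclin-dependent kinases known as p21, was at 53.4, 39.7 and 66.1 CPM in the control lungs and 67.1, 115 and 117 CPM in the hypoplastic lungs (log2 fold change 0.91, SE 0.245, DESeq2 adjusted p 0.0327). Zmat3, an RNA-binding target of p53, was at 16.8, 9.58 and 21.8 CPM and 28.9, 30.7 and 44.8 CPM (log2 fold change 1.11, SE 0.273, DESeq2 adjusted p 0.0126). Gadd45a, a stress sensor, was at 18.02, 13.8 and 23.8 CPM and 27.5, 24.8 and 24.99 CPM, and Mdm2, the ligase that degrades p53, at 33.2, 29.5 and 42.99 CPM and 41.3, 48.2 and 49.7 CPM. Hypoplastic library 1 was the lowest hypoplastic lung for Cdkn1a, Zmat3 and Mdm2.

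Cell cycle genes did not separate the groups. None of 25 genes had an unadjusted p under 0.05 by edgeR or was called by DESeq2, and their median was 0.017, with values from -0.25 to 0.26. Mki67, the proliferation antigen, was at 254, 309 and 223 CPM and 255, 249.9 and 224 CPM (log2 fold change -0.11, SE 0.178), and Top2a, a topoisomerase of dividing cells, at 513, 444 and 398 CPM and 569.8, 363 and 454 CPM (log2 fold change 0.034, SE 0.197). Aurka, a mitotic kinase, was at 29.9, 26.9 and 30.6 CPM and 36.98, 29.3 and 38.6 CPM. The p-values do not show that proliferation was alike.

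Heat shock genes had a median of 0.35 over 12 genes, 4 at an unadjusted p under 0.05 and 5 without overlap, all higher. Hsph1, a chaperone, was at 54.7, 41.97 and 46.5 CPM and 62.9, 86.98 and 65.1 CPM, and Hspb1, a small heat shock protein, at 149, 104 and 153 CPM and 188, 195 and 216 CPM. Hspa1a, an inducible chaperone, was at 1035, 846 and 639.5 CPM and 1119, 893 and 1362 CPM with overlap, and it has a near-identical copy, Hspa1b, with which the counting could split reads.

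Growth factor genes of the IGF axis lay above the control level. Igf2 (Gene ID 24483), the main growth factor of the fetus, was at 3427, 2260.2 and 2809 CPM in the control lungs and 5203, 4670.1 and 4760.4 CPM in the hypoplastic lungs (log2 fold change 0.78, SE 0.206, edgeR adjusted p 0.317, DESeq2 adjusted p 0.00535). H19, the noncoding RNA imprinted with it, was at 4527, 2712 and 3844 CPM and 6891, 6579 and 6420.4 CPM (log2 fold change 0.84, SE 0.234, DESeq2 adjusted p 0.00597). Igf1, the related growth factor, was at 27.6, 10.5 and 33.7 CPM and 40.9, 59.4 and 46.7 CPM (log2 fold change 1.03, SE 0.382, and 0.51 without both replicate 2 libraries). All 3 were separated, with control library 2 the lowest lung. From another imprinted domain of the list, Dlk1, a membrane protein of the Notch ligand type, was at 1170.5, 1516 and 1946 CPM and 1034, 1239 and 1021 CPM (log2 fold change -0.49, SE 0.188), and Meg3, a noncoding RNA, at 140.1, 487 and 207 CPM and 139, 155 and 148 CPM. Over 16 genes of the list the median was 0.28, or 0.14 without both replicate 2 libraries, with 5 higher and 2 lower at an unadjusted p under 0.05.

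Branching signals were near the control level, with few members apart. No gene of 16 in the FGF list had an unadjusted p under 0.05 by edgeR or was called by DESeq2, and the median was 0.090, or -0.11 without both replicate 2 libraries. Fgf7, another mesenchymal ligand, was at 0.812, 0.624 and 2.2 CPM and 1.1, 2.07 and 1.77 CPM, and Fgfr3, a receptor, at 191, 263 and 258 CPM and 164, 197 and 220.03 CPM. Etv4, a target gene of FGF signalling, was at 12.5, 9.29 and 11.1 CPM and 14.7, 12.2 and 13.1 CPM. In the hedgehog list, with a median of -0.020 over 11 genes (-0.17 without both replicate 2 libraries), Shh was lower as given above and its receptor and target gene Ptch1 was at 184, 143 and 182 CPM and 145, 178 and 179.8 CPM (log2 fold change -0.020, SE 0.131). Cdon, a coreceptor, was at 50.01, 38.5 and 49.6 CPM and 66.6, 72.6 and 46.8 CPM. The BMP list of 21 genes had a median of 0.16 and the Notch list of 14 genes 0.074, with 1 higher and 1 lower gene, and 1 higher gene, at an unadjusted p under 0.05. These 2 medians were 0.035 and -0.20 without both replicate 2 libraries.

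In the Wnt list of 22 genes 3 of the 4 members past an unadjusted p of 0.05 were secreted inhibitors, and all 4 lay higher. Dkk2, which blocks the Wnt coreceptor, was at 1.46, 1.05 and 1.02 CPM in the control lungs and 4.51, 12.2 and 2.82 CPM in the hypoplastic lungs (log2 fold change 2.47, SE 0.533, edgeR adjusted p 0.317, DESeq2 adjusted p 0.000573). Sfrp1, which binds Wnt ligands, was at 2.96, 1.12 and 3.76 CPM and 11.2, 14.6 and 4.2 CPM (log2 fold change 1.92, SE 0.496, DESeq2 adjusted p 0.0116). Sfrp2, its relative, was at 13.3, 7.63 and 11.9 CPM and 26.1, 60.2 and 12.4 CPM, with overlap. All 3 were highest in hypoplastic library 2 and lowest of the hypoplastic lungs in library 3, an order shared by Dcn and Lum. The fourth was Rspo3, a secreted enhancer of Wnt signals, at 0.23, 0.0713 and 0.42 CPM and 0.625, 1.27 and 0.253 CPM. The log2 fold changes of Dkk2 and Sfrp1 were 1.58 and 1.20 without both replicate 2 libraries. The list median was 0.25, 0.035 without both replicate 2 libraries and 0.50 without control library 1, and the target gene Axin2 was at 28.5, 19.9 and 36.4 CPM and 22.2, 38.01 and 31.1 CPM, with overlap.

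TGF-beta genes had a median of 0.17 over 15 genes, and -0.013 without both replicate 2 libraries. Of the ligands, Tgfb3 was higher without overlap, at 10.3, 7.65 and 10.8 CPM and 14.4, 18.2 and 13.2 CPM (log2 fold change 0.67, SE 0.207), while Tgfb1 was at 35.6, 17.4 and 45.7 CPM and 36.5, 61.4 and 43.4 CPM and Tgfb2 at 89.9, 69.4 and 71.3 CPM and 63.4, 77.2 and 101 CPM. The receptor Tgfbr2 was lower without overlap, at 209, 226 and 243 CPM and 171, 187 and 179 CPM (log2 fold change -0.33, SE 0.134).

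Ccn1 and Ccn2, matricellular proteins whose genes are targets of YAP, which is active in stretched cells, both lay higher. Ccn1 was at 149, 112 and 215 CPM in the control lungs and 318, 319.8 and 385 CPM in the hypoplastic lungs (log2 fold change 1.11, SE 0.259, edgeR adjusted p 0.317, DESeq2 adjusted p 0.00597). Ccn2 was at 43.1, 23.4 and 50.04 CPM and 64.5, 107 and 61.8 CPM (log2 fold change 1.004, SE 0.39), and 0.44 without both replicate 2 libraries. Yap1 itself was at 128, 127 and 124 CPM and 117, 105 and 114 CPM (log2 fold change -0.17, SE 0.0834), lower by a small step without overlap. Pthlh, a ligand released by stretched distal epithelium, was at 0.521, 0.143 and 0.271 CPM and 2.27, 1.36 and 0.308 CPM. The list as a whole had a median of 0.092 over 15 genes (-0.022 without both replicate 2 libraries), with 3 higher at an unadjusted p under 0.05, so Ccn1 and Ccn2 do not stand for its other members. Ccn1 is also an immediate early gene.

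Lipid genes were mixed. In the cholesterol synthesis list of 20 genes 6 were higher at an unadjusted p under 0.05, and 7 were higher and 2 lower without overlap. The median was 0.12, or 0.26 without both replicate 2 libraries and -0.015 without control library 3. Hmgcs1, an early synthase of the pathway, was at 61.8, 70.9 and 53.7 CPM in the control lungs and 81.2, 76.3 and 90.5 CPM in the hypoplastic lungs. Cyp51, a demethylase of the sterol ring, was at 142, 117 and 130.3 CPM and 209.8, 173 and 172 CPM, and Insig1, the sterol-sensing brake of the pathway, at 192, 167 and 205 CPM and 235, 229.9 and 244 CPM. The 3 log2 fold changes lay between 0.33 and 0.51. In the list of fatty acid and phospholipid synthesis 5 of 22 genes were lower and 2 higher at an unadjusted p under 0.05. Without overlap 5 were lower and 3 higher. Of the 22 genes 11 lay above 0 and 11 below it, with a median of -0.072. Fasn, fatty acid synthase, was at 713, 1276 and 676 CPM and 482, 551 and 528 CPM (log2 fold change -0.77, SE 0.223, DESeq2 adjusted p 0.0496), and Acaca, which makes its substrate, at 118, 119 and 106 CPM and 101, 87 and 91.3 CPM. Chpt1, which carries out the last step of phosphatidylcholine synthesis, was higher, at 11.9, 10.5 and 10.8 CPM and 18.7, 16.3 and 14.1 CPM. Fasn was highest in control library 2, as were the type II genes.

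Glucocorticoid response genes had a median of 0.039 over 16 genes, with 2 higher and 1 lower at an unadjusted p under 0.05. Fkbp5, a chaperone partner of the receptor, was at 25.003, 37.2 and 29.1 CPM and 31.1, 28.1 and 26.2 CPM, with overlap. Mt2A, a metallothionein, was at 3.02, 1.44 and 1.97 CPM and 3.77, 9.11 and 4.65 CPM (log2 fold change 1.44, SE 0.395, DESeq2 adjusted p 0.0286), and Zbtb16, a zinc finger factor, at 32.2, 66.3 and 34.8 CPM and 29.6, 22.2 and 26.5 CPM. Genes of hypoxia and glycolysis had a median of 0.29 over 22 genes, 20 of them above 0, with 2 higher at an unadjusted p under 0.05. The median was 0.073 without hypoplastic library 1 and 0.16 without control library 2. Pgk1, a glycolytic kinase, was at 466, 324 and 443 CPM and 639, 630.1 and 556 CPM (log2 fold change 0.57, SE 0.177), and Car9, a carbonic anhydrase induced by hypoxia, at 4.75, 2.16 and 5.86 CPM and 10.6, 9.98 and 5.43 CPM. Ldha, lactate dehydrogenase, was at 1236, 789 and 934 CPM and 1567, 1089 and 854 CPM, with overlap. In the antioxidant list of 19 genes Slc7a11, the cystine carrier, was apart, at 0.812, 1.3 and 0.678 CPM and 2.47, 2.01 and 2.82 CPM (log2 fold change 1.40, SE 0.36, DESeq2 adjusted p 0.0368), while Sod1, superoxide dismutase, was at 106, 89.1 and 102 CPM and 126, 106 and 112 CPM.

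Matrix proteases and their inhibitors had 9 of 17 tested genes higher at an unadjusted p under 0.05, and 5 were higher and 1 lower without overlap. Their median was 0.81, and 0.21 without both replicate 2 libraries. Timp4, an inhibitor of metalloproteases, was at 0.628, 0.499 and 0.407 CPM and 1.24, 0.98 and 0.905 CPM without overlap (log2 fold change 1.03, SE 0.296), and Timp1, another inhibitor, at 28.5, 20.01 and 27.5 CPM and 35.4, 68.7 and 29.5 CPM. Adamts4, an aggrecanase, was at 5.27, 1.87 and 5.34 CPM and 9.36, 81.1 and 10.2 CPM, with its high value in hypoplastic library 2. Mmp2, gelatinase A of fibroblasts, was at 188, 64.6 and 255 CPM and 184, 289.7 and 294 CPM, with overlap. Mmp8 and Mmp9, given above, are products of neutrophils too. In the iron list of 13 tested genes 3 were higher at an unadjusted p under 0.05, which were Tf, Lcn2 and Ftl1, the ferritin light chain, at 2400.2, 2030.3 and 2708 CPM and 2819, 3659.8 and 3428 CPM. Tfrc, the receptor for transferrin, was at 304, 189 and 240.1 CPM and 371, 242 and 332 CPM, with overlap, and Hamp, the liver hormone hepcidin, did not pass the filter.

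**Figure D5:**
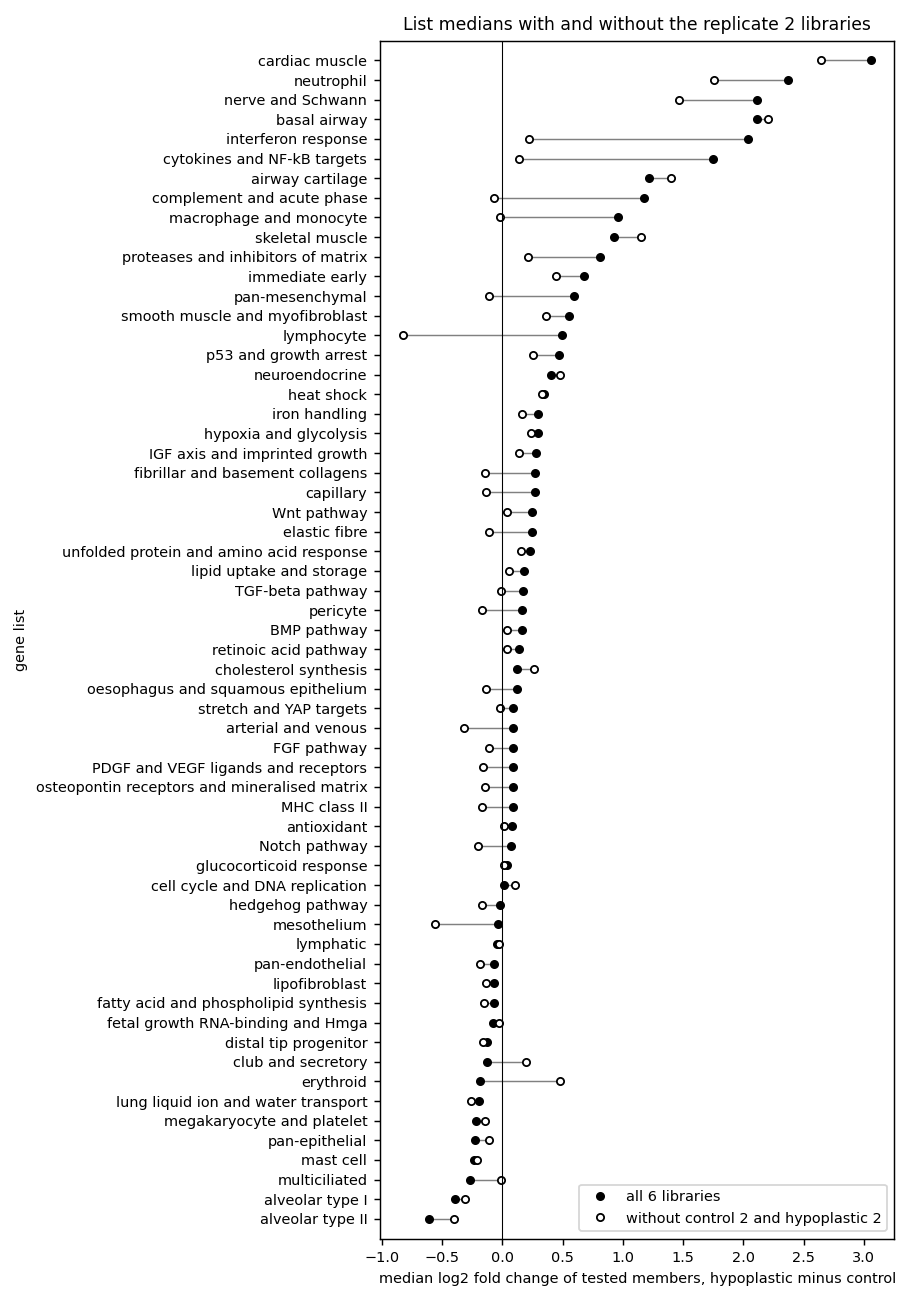
Median log2 fold change (hypoplastic minus control) of the tested members of 60 gene lists, with all 6 libraries (filled) and without control library 2 and hypoplastic library 2 (open). The interferon, cytokine, complement and macrophage medians come near 0 without these libraries (0.22, 0.14, -0.068 and -0.020), whereas the neutrophil, type II and immediate early medians stay at 1.76, -0.40 and 0.45.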

How the data were processed

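Lungs were profiled by RNA sequencing after ribosomal RNA depletion, with RNA of all libraries extracted on the same day, per the labels' protocols. The authors deposited a table of estimated counts per gene, of which 19.5% of the values above 0 were exactly whole. The build rn7 and DESeq2 are named in the submitters' processing notes, with aligner and counting options not given in the sources used here. These estimated counts were rounded, which the planned analysis of counts had not foreseen. Gene IDs were matched to symbols for 17314 of 17465 genes. Genes were filtered with filterByExpr and scaled by TMM, and all 9 libraries were fitted in edgeR 4.0.16 (R 4.3.3) with a term per group and Benjamini-Hochberg adjustment over 12966 genes. The fit was tested on simulated data. The alternatives were DESeq2 1.42.0, limma voom 3.58.1, other scaling and filters, a replicate block, a sex term read from Xist and Y-linked genes, removal of ribosomal and 7SL rows, and each library left out.

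The genes and 62 lists were chosen with earlier results of these data known, so lists are described by counts and medians and not tested. Of 984 list entries 922 were in the table. Named were the called gene, the 10 higher and 10 lower genes of largest change with at least 1 CPM on average, an unadjusted p under 0.05 and no overlap, and in each list the first 2 members and up to 4 of smallest p. Further members were named after their values were seen, and some genes are not reported here. Promoters came from RefSeq on GRCr8, and no coordinates were carried over from rn7.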

Additional observations from a re-analysis of the deposited data

How the results depend on the processing

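DESeq2 called 202 genes where edgeR called 1, the fit of the 6 compared libraries alone called 4 (Spp1, Olfm4, Tf and S100a9), and leaving out both replicate 2 libraries left 2 calls (Spp1 and Ifit1). The call of Spp1 held in every alternative apart from the 3 that leave out 1 control library. Leaving out 1 library in turn gave 0 to 45 called genes and 853 to 1700 genes at an unadjusted p under 0.05. At that p the sex term left 1053 genes and the removal of both replicate 2 libraries 727, where all libraries gave 1603. At an unadjusted p under 0.05, edgeR gave 1432 genes without control library 1 and 1700 without control library 3, the alternatives with 0 calls. Higher genes were 54.0% of those at an unadjusted p under 0.05, and 65.1% without hypoplastic library 3. The cause of these shifts was not tested.

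Whether the replicate numbers of the labels pair the lungs could not be decided. Same-numbered lungs had correlations of -0.0024, -0.28 and -0.053 between their deviations from the group means, and other pairs -0.23 to 0.26. Each group mean rests on few lungs, and control library 2 and hypoplastic library 2 lay at opposite ends of the first principal component. These correlations therefore neither show nor exclude a pairing. With the replicate number as a block 2 genes were called, Spp1 and Tf, and 1323 had an unadjusted p under 0.05. No control or hypoplastic lung correlated best with its own number.

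Of the 193 genes named with values, 160 kept their direction in every alternative. Without both replicate 2 libraries the log2 fold change changed sign for Itgb3 (-0.15), Sftpa1 (0.019), Scgb3a2 (0.024), Foxj1 (0.017), Col1a1 (-0.12), Col1a2 (-0.021), Col4a1 (-0.19), Eln (-0.26), Fbn1 (-0.12), Pecam1 (-0.22), C3 (-0.21), C4a (-1.05), Csf1r (-0.17), Cd68 (-0.16), Slc4a1 (0.65), Mki67 (0.00733), Fgf7 (-0.093), Axin2 (-0.29), Tgfb1 (-0.026) and Fkbp5 (0.081). It changed sign in at least 1 fit that leaves out a single library for the following genes, each given with the range over these fits: Cd44 (-0.00844 to 0.093), Sox9 (-0.38 to 0.021), Id2 (-0.00235 to 0.32), Scgb3a2 (-0.63 to 0.10), Scgb3a1 (-1.20 to 6.22), Foxj1 (-0.90 to 0.17), Col4a1 (-0.072 to 0.31), Eln (-0.16 to 1.07), Myh11 (-0.24 to 0.57), Fgf10 (-0.072 to 0.14), Pecam1 (-0.10 to 0.15), Cdh5 (-0.16 to 0.052), Irf7 (-0.011 to 3.61), C3 (-0.44 to 1.65), C4a (-0.65 to 0.70), Krt5 (-1.62 to 4.56), Slc4a1 (-0.59 to 0.39), Mki67 (-0.21 to 0.027), Top2a (-0.14 to 0.18), Ptch1 (-0.13 to 0.074), Axin2 (-0.094 to 0.33), Tgfb2 (-0.13 to 0.21), Fkbp5 (-0.22 to 0.070) and Ldha (-0.022 to 0.45). With the sex term Slc4a1 was at 0.022 and Top2a at -0.00472. Of the 62 list medians 28 kept their sign throughout and 20 took the other sign without both replicate 2 libraries. With 3 lungs a group, effects within the spread of the lungs were not detectable, and members with few counts did not pass the filter.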
